A study of Danio rerio with 6 samples.

Results

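The contractile genes of whole zebrafish embryos are described here. They comprise every gene on the array whose symbol begins as those of the myosins, troponins, tropomyosins, muscle actins, alpha-actinins, myosin binding proteins C, tropomodulins, the gamma subunit of the muscle calcium channel and the sarcoplasmic reticulum calcium pumps do. This gave 47 genes of 8793 with a probe set of 1 symbol, and the probe set with the highest mean over all arrays stood for each gene. Of the 18 symbol prefixes searched, those of titin cap (tcap), the ryanodine receptors (ryr) and vmhc found no member, although the gene annotated as myh7 carries vmhc among its synonyms. A further 4 probe sets shared by several symbols were not used. By background knowledge of where each gene is used, 19 members were grouped as fast skeletal, 4 as slow skeletal, 8 as cardiac, 10 as smooth and non-muscle and 4 as shared between muscle types. One member, tnnt2c, was left unclassified. Another, mylipa, entered by its symbol alone, since it encodes a ubiquitin ligase and no contractile protein. In 44 of the 47 genes the probe set passed the filter on low signal and was tested, and 3 lay below it. These were tnnc1a, a cardiac troponin C gene, with signals of 34.4 to 79.5, tnni2a.3 (36.3 to 93.4) and tnnt2c (29.0 to 60.9).

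Embryos were compared at 72 hours post fertilization in 3 groups of 2 arrays. The ERbeta2 MO group came from eggs given 15 uM of a morpholino against translation of the estrogen receptor ERbeta2, the coMO group from eggs given 15 uM of a standard control morpholino, and the third group was not injected. Morpholinos are synthetic antisense molecules that pair with an mRNA, and these were injected no later than the 4 cell stage. All eggs came from pools over several aquaria, and the labels name no strain, transgene or mutant allele. The titles call the 2 samples of a group biological replicates without saying whether they came from separate clutches or injection days, so each p-value reflects the spread between these samples alone. Values are averages over whole embryos.

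Striated muscle contracts when calcium, released from and pumped back into the sarcoplasmic reticulum, binds troponin on actin filaments and lets myosin heads pull on them. In fish, fast and slow fibres use largely separate myosin, troponin and tropomyosin genes, and the heart uses a further set. Smooth muscle has no troponin, and there a myosin light chain kinase switches contraction on. At this age zebrafish embryos swim, their heart beats, and smooth muscle is being laid down around the gut and vessels.

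The arrays had equal 2%-trimmed mean signals (500.1) and median signals of 196.7 to 220.4. The signal ratio of GAPDH control probe sets at the 3' and 5' ends of the transcript, which is higher where RNA is less intact, came to 2.76 and 2.01 with ERbeta2 MO, 1.95 and 1.23 with coMO, and 1.32 and 1.24 without injection. It moved with the groups, so the fit that holds it as a covariate cannot fully separate ratio and group. Its part in the results below was not otherwise tested. The receptor genes esr2a and esr2b were below the filter, at 51.8 to 94.9 and 46.7 to 61.2, and a block of translation need not alter the mRNA, so they do not check the labels.

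Smooth muscle actin, a tropomyosin and a smooth muscle kinase passed the test against coMO, and the abundant fast and slow fibre genes did not. In these 3 genes both ERbeta2 MO arrays lay below every other array. The same held for members that did not pass against coMO, among them the fast genes tnnt3b, mylz3 and tnni2b.1, and myl6. Against coMO, 3 of 44 members had an adjusted p under 0.05 in limma and were lower, and 0 were higher, next to 2.29% of all tested probe sets called (1.63% lower and 0.654% higher). The called genes were acta2, tpm1 and mylka. An unadjusted p under 0.05 was reached by 8 members, beside 20.4% of all tested probe sets. Both ERbeta2 MO arrays lay below both coMO arrays in 11 of 44 members and above in 1, beside 23.5% and 24.6% of all tested probe sets. The first count is close to its background share and the second is below it. The median change of the members was -0.17 on the log2(signal + 32) scale, against -0.00546 over all tested probe sets. In whole embryos, fewer cells of a type and less RNA per cell cannot be told apart.

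The gene acta2 encodes smooth muscle alpha-actin. Its signal was 238 and 438 with ERbeta2 MO, 1417 and 2253 with coMO, and 3295 and 3509 without injection. The 3 groups did not overlap, and coMO lay between the others. The change of ERbeta2 MO was -2.35 (SE 0.311, adjusted p = 0.0179 in limma) against coMO, a 5.11-fold lower level on that scale, and -3.27 (adjusted p = 0.00348) against uninjected. The difference between coMO and uninjected was -0.92, with a 95% interval of -1.63 to -0.202 and an adjusted p of 0.338, so it did not pass.

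The gene tpm1 encodes a tropomyosin, the coiled-coil protein that lies along actin filaments. Its signal was 1028 and 803 with ERbeta2 MO, 2756 and 2605 with coMO, and 3077 and 2702 without injection. Unlike acta2, it was at about the same level in both other groups, with a coMO minus uninjected difference of -0.10 (95% interval -0.564 to 0.355). It fell by 1.53 against coMO (SE 0.2, adjusted p = 0.0176) and by 1.63 against uninjected (adjusted p = 0.00402). The other 4 tropomyosin genes tested did not pass in any comparison. Against coMO their changes were 0.02 for tpma, the main fast muscle tropomyosin, 0.07 for tpm3, -0.15 for tpm4a and -0.16 for tpm4b.

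The gene mylka encodes myosin light chain kinase, which phosphorylates the regulatory light chain in smooth muscle. Its signal was 261 and 270 with ERbeta2 MO, 514 and 550 with coMO, and 543 and 551 without injection. The ERbeta2 MO pair lay at close to the same value, far below 4 arrays that were close to each other. The change was -0.92 against coMO (SE 0.188, adjusted p = 0.0489) and -0.96 against uninjected (adjusted p = 0.0138). A separate probe set of mylka read 107 and 108 with ERbeta2 MO, 221 and 189 with coMO, and 225 and 219 without injection. Its change was -0.76 against coMO (adjusted p = 0.0968), which did not pass, and -0.86 against uninjected (adjusted p = 0.0246), which did. The chosen mylka probe set has the suffix _s_at, given to probes that match more than 1 transcript.

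All 3 calls were lost in some of 19 alternative settings, that of acta2 in 4, of tpm1 in 6 and of mylka in 13. For mylka these included median centring, quantile normalization, a constant prior, no filter on low signal, a pseudocount of 1 and the replicate block. With the GAPDH ratio as a covariate 0 of 44 members and 0 of 11626 probe sets were called, yet the changes were -1.61 for acta2, -1.74 for tpm1 and -0.85 for mylka. Without coMO replicate 1 or coMO replicate 2 no member was called (1 and 0 probe sets in all), with acta2 at -2.68 and -2.03, tpm1 at -1.49 and -1.57 and mylka at -0.97 and -0.88. Leaving out uninjected replicate 1 or 2 altered the shared estimate of spread, and not the changes of acta2 (-2.35), tpm1 (-1.53) and mylka (-0.92). In those fits fewer probe sets were called in all, and tpm1 and mylka lost their calls.

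**Figure D1:**
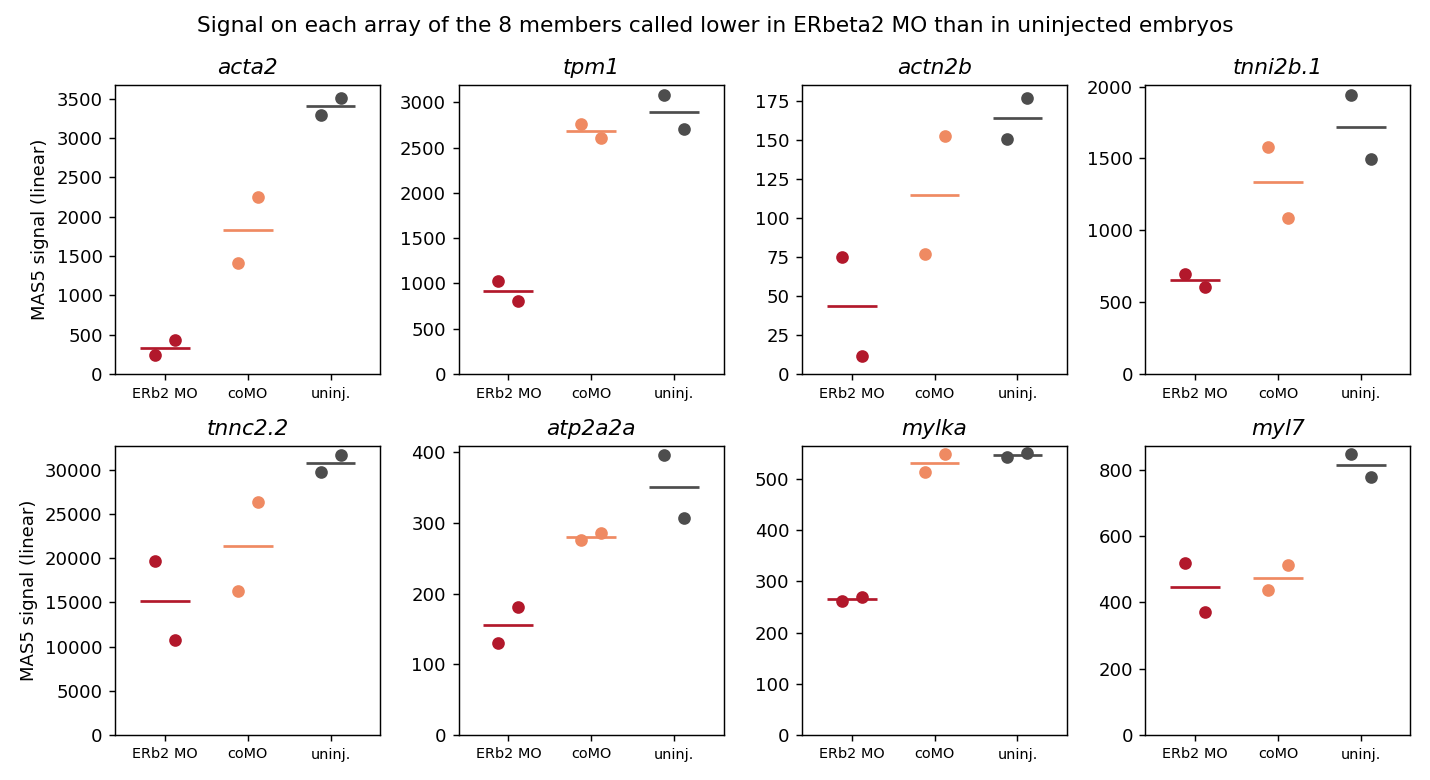
MAS5 signal on a linear axis from 0 for the 8 contractile genes called lower in ERbeta2 MO than in uninjected embryos, with 1 point per array and a bar at the mean of 2 arrays. In acta2, tpm1, mylka, tnni2b.1, atp2a2a and actn2b the ERbeta2 MO points lie below all 4 others. In tnnc2.2 and myl7 they overlap the coMO points. On the log2 scale tested, replicate 1 minus replicate 2 in ERbeta2 MO was -0.80 for acta2, 0.34 for tpm1 and -0.04 for mylka. It was 1.31 for actn2b (75.4 and 11.3) and 0.87 for tnnc2.2 (19667 and 10713). The ERbeta2 MO arrays thus differed in acta2 by about as much as in tnnc2.2, in opposite directions.

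Other genes of smooth muscle, taken from a list of markers that are no members, were read beside them. Of 5 markers tested, tagln, which encodes the actin-binding protein transgelin, fell against coMO (-1.31, adjusted p = 0.0347), with signals of 227 and 272 with ERbeta2 MO, 587 and 752 with coMO, and 872 and 765 without injection. Against uninjected, tagln (-1.60) and smtnb, a smoothelin gene (-0.995, adjusted p = 0.0239), fell. Of the 5, 1 was thus called against coMO and 2 against uninjected, beside 2.29% and 18.5% of all tested probe sets. The changes of smtnb (-0.93), foxc1a (-0.18), foxc1b (-0.52) and ednraa (0.04) against coMO did not pass.

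Of the 10 smooth and non-muscle members tested, acta2 and mylka were called in both ERbeta2 MO comparisons and the other 8 in none. That is 20% of the 10, beside 2.29% of all tested probe sets called against coMO and 18.5% against uninjected. Against uninjected the share called is thus near that over all tested probe sets. Among the 8 is myl9b, which encodes a regulatory light chain of smooth muscle myosin. It read 202 and 151 with ERbeta2 MO, 173 and 109 with coMO, and 254 and 237 without injection. Its change of 0.28 against coMO did not pass (95% interval -0.301 to 0.87, adjusted p = 0.572 by limma), nor did that of -0.42 against uninjected (adjusted p = 0.272). Several of the others encode myosins and partners found in most cell types. The regulatory light chain gene myl12.1 read 11671 and 9711 with ERbeta2 MO, 11129 and 11393 with coMO, and 10328 and 9421 without injection, so the groups overlapped (change -0.08 against coMO, 95% interval -0.494 to 0.333). The essential light chain gene myl6 changed by -0.31 against coMO (95% interval -0.749 to 0.132). The non-muscle heavy chain gene myh10 changed by 0.04, at 965 and 963 against 1085 and 810, and stood 0.49 above uninjected embryos (adjusted p = 0.136), whose signals were 621 and 733. The median change of the 10 was -0.24 against coMO, -0.32 against uninjected and 0.02 for coMO against uninjected. Against coMO the changes of the 8 not called ran from -0.48 to 0.28.

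**Figure D2:**
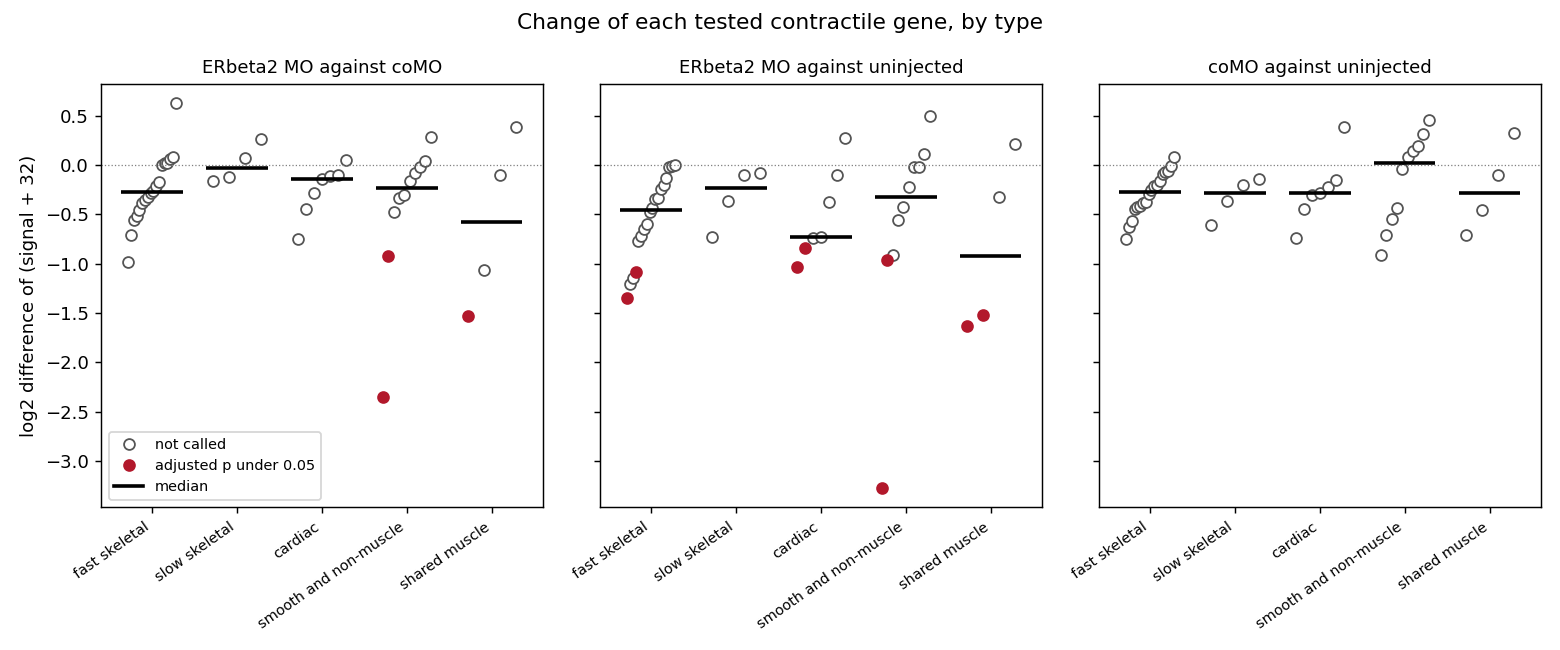
Log2 difference of (signal + 32) for each tested contractile gene, grouped by type, in the 3 comparisons. Filled points passed an adjusted p of 0.05 and bars mark the median of a type. Among smooth and non-muscle genes acta2 (-2.35 and -3.27) lies apart from the rest in both ERbeta2 MO comparisons. The called gene mylka does so against coMO (-0.92), but against uninjected (-0.96) it lies beside myh9a (-0.91), which was not called. For coMO against uninjected no point passed, and the fast, slow and cardiac medians are -0.28, -0.28 and -0.29.

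Fast fibres make up the bulk of trunk muscle in fish. Of 18 tested against coMO, 0 were called, beside 2.29% of all tested probe sets. Of the 18, 13 lay below 0, and the median was -0.28. The chosen probe set of actc1b, which encodes an alpha-actin of skeletal muscle in fish, read 41171 and 43432 with ERbeta2 MO, 43323 and 61446 with coMO, and 51550 and 56087 without injection. Its change was -0.29 against coMO (95% interval -0.753 to 0.179) and -0.35 against uninjected (adjusted p = 0.258), with coMO replicate 1 near the ERbeta2 MO values. The highest signal of any probe set was 49722 to 83407 on the 6 arrays, so actc1b lies near the top of the range, and whether its spots were saturated was not tested. Where signals are given as 3 pairs without group names, the order is ERbeta2 MO, coMO and uninjected. The fast light chain gene mylpfa read 32712 and 20008, 22313 and 37447, and 37824 and 39511, and changed by -0.18 against coMO (95% interval -0.862 to 0.51). The fast troponin T gene tnnt3b read 24862 and 16744, 26472 and 33990, and 32582 and 34616 (-0.56, adjusted p = 0.227). The essential light chain gene mylz3 was the steadiest of these 4, at 27357 and 26000, 28416 and 33625, and 28707 and 29568 (-0.21). Over all 18, changes against coMO ran from -0.98 for tnni2b.1 to 0.63 for mybpc2b.

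Against uninjected embryos, 8 of 44 members were called lower and 0 higher, or 18.2% of them. Over all tested probe sets 10.2% were called lower and 8.31% higher, 18.5% in all, so the share called among members is at the background share and only its direction is one-sided. An unadjusted p under 0.05 was reached by 16 members, beside 35.9% of all tested probe sets. The 8 called were acta2, tpm1, mylka, tnni2b.1, tnnc2.2, atp2a2a, myl7 and actn2b. The median change of the members was -0.40, against 0.03 over all tested probe sets, and 38 of 44 lay below 0. By type the medians were -0.45 for fast, -0.23 for slow, -0.73 for cardiac, -0.32 for smooth and non-muscle, and -0.92 for shared muscle genes. Both comparisons use the same ERbeta2 MO arrays, so a gene called in each was not measured independently. Both ERbeta2 MO arrays lay below both uninjected arrays in 24 of 44 members and above in 3, beside 30.1% and 33.6% of all tested probe sets.

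Of 18 fast genes tested against uninjected, 2 (11.1%) were called, tnni2b.1 and tnnc2.2, both lower. Over all tested probe sets 18.5% were called, 10.2% lower. The gene tnni2b.1 encodes a fast troponin I, the inhibitory subunit, and read 697 and 606 with ERbeta2 MO, 1580 and 1087 with coMO, and 1945 and 1499 without injection. Both ERbeta2 MO arrays were below all 4 others. It fell by 1.35 (SE 0.243, adjusted p = 0.0105) against uninjected, and the change of -0.98 against coMO did not pass (adjusted p = 0.0799). The gene tnnc2.2 encodes fast troponin C, the calcium-binding subunit, and read 19667 and 10713, 16272 and 26407, and 29804 and 31701. Here only the uninjected arrays stood apart from the injected ones, and the call (-1.08, adjusted p = 0.0495) lay at the threshold. It held in 5 of 19 alternative settings, and not without ERbeta2 MO replicate 2 (-0.64, adjusted p = 0.113). The troponin I gene tnni2a.4 read 17875 and 8503, 14933 and 17385, and 20803 and 21226, and its change of -0.77 did not pass (adjusted p = 0.118).

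Of the genes for calcium pumps and the channel subunit, 1 of 5 was called in any comparison. That call was against uninjected, where 18.5% of all tested probe sets were called, so the count is near the background share. The gene atp2a1, which encodes the calcium pump of fast fibres, read 26913 and 22093 with ERbeta2 MO, 20673 and 25643 with coMO, and 23261 and 25888 without injection. Its changes were 0.08 against coMO (95% interval -0.364 to 0.529) and -0.01 against uninjected. The gene atp2a2a, which encodes the pump used in heart and slow muscle, read 130 and 181, 276 and 285, and 396 and 307 and fell by 1.04 against uninjected (SE 0.23, adjusted p = 0.0204). Its change of -0.75 against coMO did not pass (adjusted p = 0.132). A further atp2a2a probe set read 132 and 163, 140 and 160, and 131 and 144, changed by 0.08 against uninjected and was not called, so both probe sets of this gene disagree. The related pump gene atp2a2b changed by -0.10 against coMO and 0.22 against uninjected. The calcium channel subunit gene cacng1a read 457 and 206, 193 and 273, and 475 and 327, with no change that passed.

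Cardiac genes gave mixed values. Of 7 tested, 2 were called against uninjected, atp2a2a and myl7, and 0 against coMO, beside 18.5% and 2.29% of all tested probe sets. The gene myl7 encodes the cardiac regulatory light chain, used throughout the heart, and read 518 and 372 with ERbeta2 MO, 438 and 511 with coMO, and 848 and 778 without injection. It fell by 0.84 against uninjected (SE 0.222, adjusted p = 0.0343), a call made in 9 of 19 alternative settings. The coMO arrays lay as low, and the change against coMO was -0.10 (95% interval -0.609 to 0.41), while coMO minus uninjected was -0.74 (adjusted p = 0.32). The gene myh7 read 967 and 970, 1122 and 983, and 758 and 834, and stood 0.27 above uninjected, without passing (adjusted p = 0.329). The gene actc1a, a cardiac-type actin, read 20640 and 12564, 15112 and 16098, and 16958 and 17614 (0.05 against coMO and -0.10 against uninjected). These signals are far above those of myl7 (372 to 848), and how much of them came from the heart was not tested.

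Cardiac myosin binding protein C, encoded by mybpc3, read 1262 and 461 with ERbeta2 MO, 951 and 926 with coMO, and 1264 and 1314 without injection. Its changes of -0.28 and -0.73 did not pass, and the ERbeta2 MO arrays were farther from each other than either other pair. The tropomyosin gene tpm4a read 2008 and 1394, 1719 and 2004, and 2034 and 2324 (-0.37 against uninjected, adjusted p = 0.276). Of 6 heart markers tested besides, the transcription factor gene gata5 was called lower against uninjected (-1.18, adjusted p = 0.0131) and 0 were called against coMO. Over all tested probe sets 18.5% were called against uninjected (10.2% lower) and 2.29% against coMO. The defining heart gene nkx2.5 was below the filter.

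Alpha-actinin crosslinks actin at the Z-disc. The gene actn2b was called lower against uninjected (-1.52, adjusted p = 0.043), at 75.4 and 11.3 with ERbeta2 MO, 77.2 and 153 with coMO, and 151 and 177 without injection. At such low signal the value of 1 array counts heavily, and without ERbeta2 MO replicate 2 the change was -0.86 and not called (adjusted p = 0.0906). It was called in 5 of 18 alternative settings. The fast alpha-actinin gene actn3b read 4780 and 1650, 4266 and 5036, and 5777 and 6765, and its change of -1.14 did not pass (adjusted p = 0.0878).

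Slow fibre genes were the most divided between the ERbeta2 MO arrays. The slow myosin heavy chain gene smyhc1 read 8260 and 2540 with ERbeta2 MO, 4199 and 3451 with coMO, and 4678 and 5178 without injection. The light chain genes myl10 and myl13 read 14727 and 4794, and 9531 and 2127, in ERbeta2 MO. The coMO and uninjected arrays read 8849 to 10943 for myl10 and 4604 to 7960 for myl13, inside the ERbeta2 MO pair. In tpm3, a tropomyosin of slow muscle, ERbeta2 MO read 3386 and 2464 against 2527 to 3127 on the other arrays. All 4 slow genes had their highest signal of the 6 arrays on ERbeta2 MO replicate 1 and their lowest on ERbeta2 MO replicate 2. Their changes between groups, from -0.16 to 0.27 against coMO, did not pass (lowest adjusted p = 0.782).

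The same split ran through the fast genes. ERbeta2 MO replicate 2 was the lowest of the 6 arrays in 15 of 18 fast members, 4 of 4 slow members and 5 of 7 cardiac members, next to 2 of 10 smooth and non-muscle members and 20% of all tested probe sets. The median of replicate 1 minus replicate 2 in ERbeta2 MO was 0.80 for fast, 1.65 for slow, 0.52 for cardiac and 0.01 for smooth and non-muscle members, against -0.04 over all tested probe sets. In coMO the same medians were -0.24, 0.03, -0.09 and 0.04, and in uninjected embryos -0.09, -0.05, -0.06 and -0.10. The fast genes were one-sided in these groups too, with 16 of 18 higher on coMO replicate 2 and 15 of 18 higher on uninjected replicate 2. In fast and slow genes the medians of these differences between the ERbeta2 MO arrays are larger in size than the median group changes of -0.28 and -0.03 against coMO. The GAPDH ratio was 2.76 on replicate 1, where these genes were higher, and 2.01 on replicate 2. The 3' over 5' signal ratio of control probe sets for the muscle actin gene actc1b went the other way, at 8.92 and 13.5. The part of either ratio in this split was not tested.

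**Figure D3:**
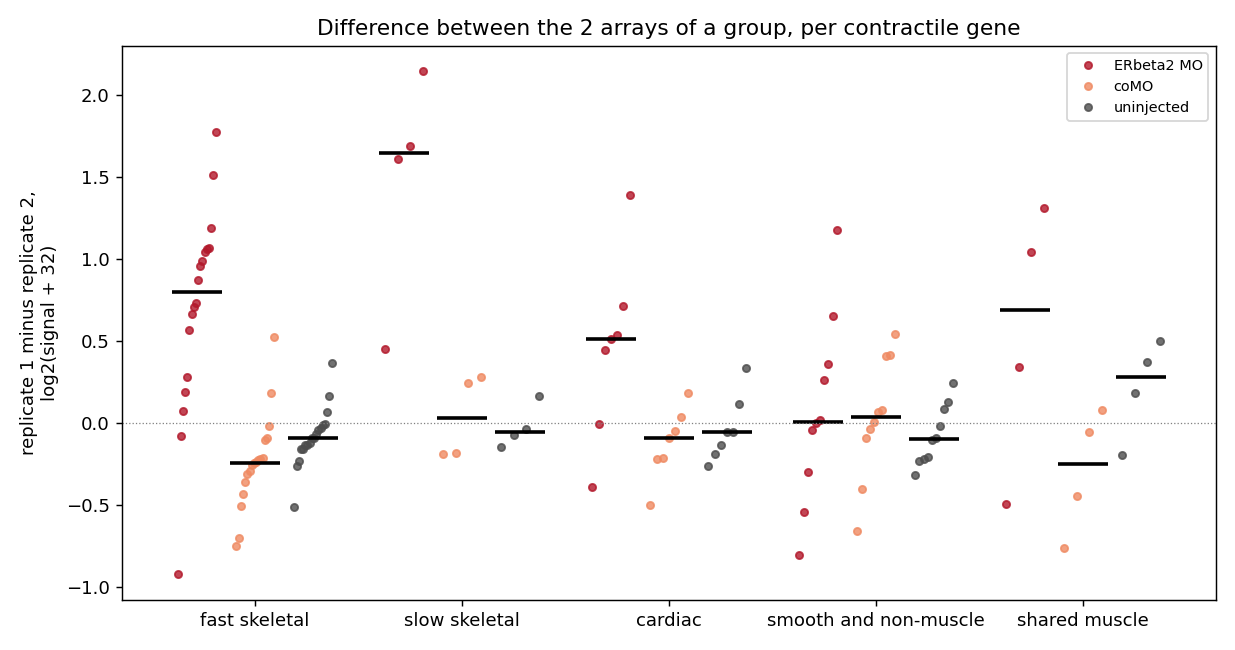
Replicate 1 minus replicate 2 on the log2(signal + 32) scale for each tested contractile gene, by type and group, with bars at the medians. The ERbeta2 MO points of fast (median 0.80) and slow (1.65) genes lie mostly above 0, and those of smooth and non-muscle genes (0.01) lie on both sides of it. Fast genes lie mostly below 0, by less, in coMO (median -0.24) and uninjected embryos (-0.09).

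Leaving out either array therefore changed which skeletal genes were called, and in which direction. Against the uninjected mean, slow genes had a median of 0.39 on ERbeta2 MO replicate 1 and -1.06 on replicate 2. Fast genes did not change side, with medians of -0.18 (12 of 18 below 0) and -0.92 (17 of 18 below 0). Without ERbeta2 MO replicate 1, 6 of 22 fast and slow genes were called lower than in coMO and 0 higher, with 5.07% of all probe sets called. Without ERbeta2 MO replicate 2, 0 were called lower and 4 higher (smyhc1, myl10, myl13 and mybpc2b), with 13.8% of all probe sets called. The genes acta2, tpm1 and mylka were called lower in both cases. A single ERbeta2 MO array was then assumed to vary like the other groups. Against uninjected embryos 27 of 44 members were called without replicate 1 and 7 without replicate 2, beside 27.1% and 25.7% of all probe sets.

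Between the ERbeta2 MO arrays epidermis markers went as the skeletal genes did, and neuron markers went the other way. Red blood cell markers were divided. The 9 epidermis markers summed to 38497 on ERbeta2 MO replicate 1 and 13228 on replicate 2, against 40798 to 64458 on the other arrays. The 8 neuron markers summed to 27888 and 49799, against 32281 to 42488. The 8 red blood cell markers summed to 38892 and 49180 with ERbeta2 MO, 33868 and 32868 with coMO, and 14584 and 20468 without injection. The largest part of that sum was hbae3 (27135 and 38112 with ERbeta2 MO). Between these 2 arrays hbbe2, hbaa1, alas2 and gata1a went as hbae3 did. The other way went hbbe3 (3716 and 2678), slc4a1a (1938 and 1137) and epb41b (152 and 118). Epidermis is thus lowest where skeletal genes are lowest. The part of these tissues in the muscle values was not tested. The 10 skeletal muscle markers summed to between 100191 and 149328, highest in uninjected replicate 2 and lowest in ERbeta2 MO replicate 2. Every array holds whole embryos with skeletal muscle, so this sum does not check the grouping of members by type.

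The control morpholino alone moved no contractile gene past the threshold. The spread in this test was shared over all 3 groups, so wide ERbeta2 MO pairs enter it too. For myl13 the SE was 0.557, while replicate 1 minus replicate 2 was 2.15 with ERbeta2 MO, -0.19 with coMO and 0.16 without injection. With only the 4 arrays compared, 0 members and 2 of all probe sets were called. For coMO against uninjected, 0 of 44 members and 0 of 11626 probe sets (0%) were called in limma, and 3 members and 12.5% of all probe sets had an unadjusted p under 0.05. The members' median was -0.24, against 0.02 over all tested probe sets, and 35 of 44 lay below 0. Both coMO arrays lay below both uninjected arrays in 24 members and above in 5, beside 26.3% and 28.9% of all tested probe sets. The largest changes in size were those of acta2 (-0.92), tmod4, which encodes a cap of actin filament ends in skeletal muscle (-0.75), and myl7 (-0.74). On simulated data for ERbeta2 MO against coMO, 18% of changes of 1 on this scale were recovered, so many differences of that size were missed there with 2 arrays a group. The simulation gave a probe set the same spread in every group and drew probe sets independently. In the data the median size of replicate differences over all tested probe sets was 0.33 with ERbeta2 MO, 0.22 with coMO and 0.17 without injection. The share recovered may therefore differ in the data. The comparison of coMO and uninjected embryos was not simulated, so the share missed in it is not known.

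The gene actc1b is read by several probe sets, and they did not move alike. Control probe sets named acta1 on the array, but annotated to actc1b, lie at the 3' end, middle and 5' end of the transcript. At the 3' end they read 39850 and 41445 with ERbeta2 MO, 42349 and 64773 with coMO, and 52664 and 58288 without injection. At the 5' end they read 4465 and 3075, 1942 and 6016, and 14890 and 13694. The 3' signals of coMO and uninjected embryos overlapped, whereas at the 5' end all injected arrays lay below both uninjected arrays. The 3' over 5' ratio came to 8.92 and 13.5 with ERbeta2 MO, 21.8 and 10.8 with coMO, and 3.54 and 4.26 without injection. It was higher on all 4 injected arrays than on both uninjected arrays, and the ERbeta2 MO and coMO values overlapped. Its part in the other contractile genes was not tested. With this ratio as a covariate, an alternative added after seeing the data, the members' median against uninjected was 0.0695 in place of -0.40. Because the ratio splits injected from uninjected arrays, and is read from a member gene, that fit cannot tell it from the effect of injection.

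**Figure D4:**
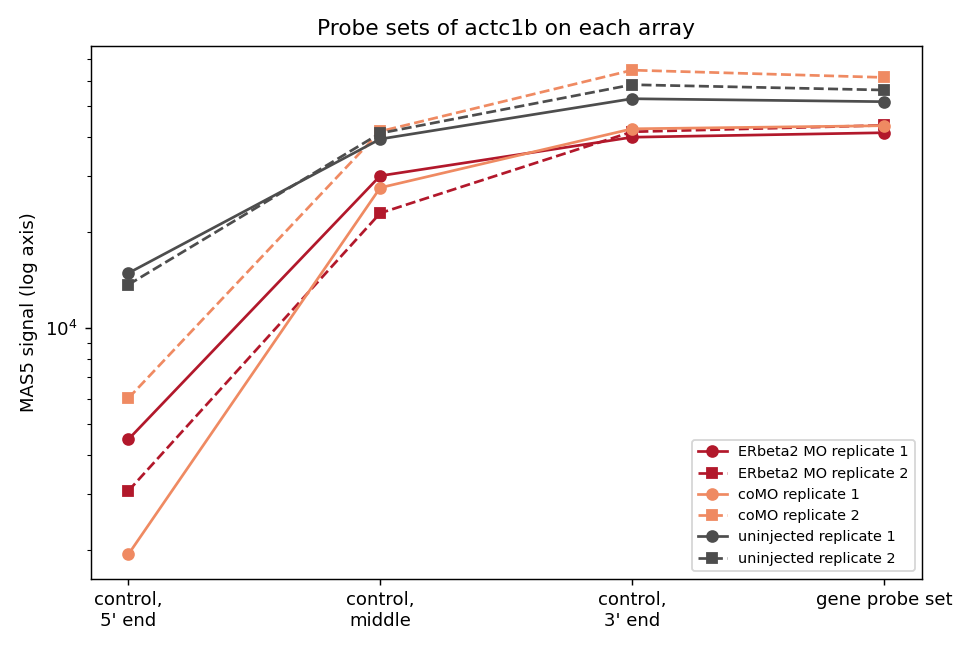
MAS5 signal, on a log axis, of the control probe sets at the 5' end, middle and 3' end of actc1b and of the probe set chosen for the gene, with 1 line per array. At the 5' end the uninjected arrays (14890 and 13694) lie above all injected arrays (1942 to 6016), and at the 3' end the uninjected arrays (52664 and 58288) lie between the lowest and highest injected arrays (39850 and 64773).

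Probe sets also disagreed for other members. A further myl12.1 probe set read 5018 and 4835 with ERbeta2 MO, 3925 and 7652 with coMO, and 8907 and 9774 without injection (-0.92 against uninjected, adjusted p = 0.0597), where the chosen one changed by 0.11. A further mylpfa probe set read 27767 and 23619, 19130 and 21496, and 20554 and 25027 (0.17 against uninjected), where the chosen one changed by -0.59. For tnni2a.4 the values were -0.10 and -0.77. Of the 7 member genes with more than 1 probe set, others were closer, with -0.92 and -0.76 against coMO for mylka and -0.29 and -0.26 for the regular actc1b probe sets that were tested. The alpha-actin genes acta1a, acta2, actc1a and actc1b encode nearly identical proteins whose probes may cross-hybridise, which was not tested.

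Partners of the sarcomere that are not members were counted from lists of textbook genes. Of 15 Z-disc, titin and nebulin genes tested, 4 were called lower and 1 higher against uninjected, and 1 (desmb) lower against coMO, beside 10.2% and 8.31% of all tested probe sets called lower and higher against uninjected and 2.29% called against coMO. The only gene higher was ttn.2, one of the titin genes, at 16898 and 11391 with ERbeta2 MO, 10671 and 9720 with coMO, and 3333 and 5196 without injection. It rose by 1.73 against uninjected (SE 0.269, adjusted p = 0.00751), and the coMO minus uninjected difference of 1.28 did not pass (adjusted p = 0.32), nor did the change of 0.44 against coMO. The genes lower were desmb, klhl41b (-1.52), myoz1b (-1.42) and ldb3a (-1.15), of which the last 2 encode Z-disc proteins. The muscle intermediate filament gene desmb fell in both comparisons (-1.54, adjusted p = 0.042, and -1.92, adjusted p = 0.0065). Its signal was 18.2 and 44 with ERbeta2 MO, 118 and 182 with coMO, and 199 and 205 without injection. The fellow desmin gene desma, used in skeletal muscle, did not pass (0.84 against coMO and 0.16 against uninjected), with signals of 4620 and 1511 with ERbeta2 MO, 1301 and 1646 with coMO, and 2251 and 2492 without injection. Nebulin (neb) read 4866 and 1556, 2826 and 3475, and 2000 and 3688, and did not pass.

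Of 13 genes of calcium handling and excitation, 4 were called lower against uninjected and 0 against coMO, beside the same 10.2% and 2.29%. Those lower were rapsn (-1.21, adjusted p = 0.0205), musk (-0.80) and chrne (-0.70), which act at the neuromuscular junction, and sypl2a (-0.93). The parvalbumin genes pvalb1 and pvalb2, calcium buffers of fast muscle, stood at -0.39 and -0.30 against uninjected, without passing. Of 12 muscle chaperone and transcription factor genes, 0 were called lower and 2 higher against uninjected, myod1 (0.83, adjusted p = 0.048), a regulator of muscle cell fate, and eya1 (0.93, adjusted p = 0.0371), beside 8.31% of all tested probe sets called higher. The signal of myod1 was 231 and 172 with ERbeta2 MO, 116 and 82 with coMO, and 93.2 and 103 without injection, and its change of 0.84 against coMO did not pass (adjusted p = 0.121). The chaperone gene unc45b, needed for myosin folding, read 1058 on ERbeta2 MO replicate 1 and 252 to 409 on the other 5 arrays.

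The authors' deposited tables list 1046 probe sets for ERbeta2 MO and coMO, 2443 for ERbeta2 MO and uninjected, and 541 for coMO and uninjected. The value table holds 15617 probe sets, among them the chosen ones of the 47 members. In the authors' deposited table of ERbeta2 MO and coMO, 5 chosen probe sets of members appear, with ratios of 0.144 for acta2, 0.375 for atp2a2a, 0.396 for tpm1, 0.461 for mylka and 2.09 for mybpc2b. The last encodes fast myosin binding protein C and read 1605 and 446 with ERbeta2 MO and 486 and 601 with coMO, so the groups overlapped and the change of 0.63 did not pass here (adjusted p = 0.502). The authors' deposited table of ERbeta2 MO and uninjected embryos lists 8 chosen probe sets, all below 0.5, with acta2 at 0.0808, with 1 (cacng1a, 0.412) in that of coMO and uninjected embryos. The latter authors' deposited table also lists actc1b through probe sets that were not chosen, at 0.352 and, for the control at the 5' end, 0.225. The probe set at 0.352 read only 24.3 and 55 with coMO and 134 and 85.9 without injection. It lay below the filter and was not tested, whereas the chosen actc1b probe set changed by -0.06 between these groups.

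The member that is no contractile gene went the other way. The ubiquitin ligase gene mylipa read 394 and 651 with ERbeta2 MO, 332 and 317 with coMO, and 302 and 332 without injection. Either ERbeta2 MO array exceeded the other 4, and the means differed by 0.60 against coMO and 0.63 against uninjected, without passing (adjusted p = 0.234 and 0.114).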

How the data were processed

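Per the labels' protocols, total RNA carried a biotin label and went onto 1 Affymetrix array per sample. The deposited value table gives 1 intensity for each of 15617 probe sets and 6 arrays, for which the submitters' processing notes name MAS5. That algorithm treats every array separately and brings all to an equal trimmed mean, so an array rich in some transcripts lowers the others slightly. No detection calls were used here, so a low signal cannot be told from background. In addition there are 3 deposited tables of the authors' own fold ratios between groups, whose values are all 2 or more or 0.5 or less. The sources used here do not say how replicates were combined. Each table's direction follows from the sign of the same difference in the value table, which matched for 100% of listed probe sets.

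Signals were transformed as log2(signal + 32). The 115 control probe sets and the 25% with the lowest mean over all arrays were left out, leaving 11626. One limma 3.58.1 model (R 4.3.3, lmFit and eBayes with an intensity trend) held the 3 groups, with 5.28 prior degrees of freedom added to 3 residual ones. Two-sided p-values were adjusted by Benjamini-Hochberg over all 11626 probe sets and called under 0.05. For 2 arrays against 2, the smallest p of an exact permutation test is 0.333. Names come from the platform annotation, in which 10802 probe sets carried 1 symbol, and all 47 members matched the gene table of assembly GRCz12tu under the same symbol. No coordinates or sequences are given. Named were every called member and, within each type, the 4 members with the highest mean signal. The few others were chosen after their values were seen, and members, types and lists with earlier results of these data known. On simulated data for ERbeta2 MO against coMO (11626 probe sets), 87% of changes of 2 and 18% of changes of 1 on the log2 scale were recovered, with 5 calls without a change. There 200 probe sets were changed, and probe sets were drawn independently, each with the same spread in every group. Same-numbered arrays of different groups had correlated deviations of -0.0836, 0.109 and -0.0979, so the numbers were not taken as pairs. Alternatives covered the pseudocount, filter, scaling, prior, arrays fitted, a replicate block, the GAPDH ratio, the probe sets counted and each array left out, and 2 were added after seeing the data.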

Additional observations from a re-analysis of the deposited data

How the results depend on the processing

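In the comparison with coMO 3 members were called, against 0 with the GAPDH ratio and 0 with the actc1b control ratio held in the model. Leaving out ERbeta2 MO replicate 1 together with coMO replicate 2 gave 17 (6.75% of all probe sets called), and single arrays left out gave 0 to 12. The members' median of -0.17 ranged from -0.48 (without ERbeta2 MO replicate 1) to 0.11 (without ERbeta2 MO replicate 2). Against uninjected embryos 8 were called, against 0 with either ratio as a covariate, 5 with median centring, with only the 4 arrays compared and with the replicate block, 31 without both arrays (38.3% of all probe sets), and 1 to 27 with 1 array left out. The members' median against uninjected, -0.40, was -0.42 without uninjected replicate 1 and -0.44 without uninjected replicate 2. It was -0.76 with the GAPDH ratio, 0.0695 with the actc1b ratio and -0.84 without both arrays, and ranged from -0.84 to -0.12 with 1 array left out. For coMO against uninjected 16 members were called without both arrays (18.5% of all probe sets), against 0, and the median of -0.24 was 0.52 with the actc1b ratio. The cause was not tested, except that leaving out both arrays leaves 1 residual degree of freedom among samples. Both ratios moved with the groups, so the fits that hold them cannot fully separate ratio and group. A change of sign was counted where a change was called in either fit. Against coMO, myl10 and myl13 were called higher without ERbeta2 MO replicate 2 (0.64 and 0.95), and smyhc1 lower without both arrays (-0.72). With 1 array left out they ranged from -0.97 to 0.64, -1.20 to 0.95 and -0.58 to 1.11. Against uninjected, smyhc1 was called higher without ERbeta2 MO replicate 2 (0.74, and -0.95 without replicate 1), and actn2b and tnnc2.2 were at 0.019 and 0.16 with the actc1b ratio. Median centring moved the median of all probe sets from 0.03 to 0.145 against uninjected, with that of the members at -0.28. Of all probe sets, 266 were called against coMO and 2156 against uninjected, and from 0 to 1602 and 0 to 4450 over the settings, with 60 and 1492 from the 4 arrays compared, 129 and 2065 without a filter, 160 and 2056 with a pseudocount of 1, and 142 and 1927 with the block. Over 19 settings acta2 kept its sign in all and its call in 15 against coMO and 17 against uninjected. Over the same settings tpm1 kept its call in 13 and 16, and mylka in 6 and 15. The replicate block left acta2 and tpm1 called in both comparisons and mylka only against uninjected (adjusted p = 0.0836 against coMO). The 2 arrays a group limit the precision throughout.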
